A study of Mus musculus with 3 samples.

Results

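The integrins and laminins were followed across the cell types of the P14 mouse lung. Genes were chosen by symbol alone, as those named *Itga* or *Itgb*, or *Lama*, *Lamb*, or *Lamc*, with the number or letter of a chain. The rule found 39 of the 28692 features counted, with 38 distinct symbols, because *Itgam* is listed under 2 identifiers. They are 19 integrin α features, 9 integrin β genes, and 11 laminin genes. The study made a single-cell RNA-Seq library from the dissociated whole lung of each of 3 wild-type C57BL/6 pups, which had been kept in room air from the first day of life until they were taken at P14. The pups, numbered mice 2, 3, and 4, carried no altered allele and received no other treatment, and they form 1 condition, so cell types and not conditions were compared. Mice, and not cells, were the replicates.

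Laminins are trimers of an α, a β, and a γ chain that polymerize into the basement membrane, the sheet on which epithelial cells and ECs rest. Integrins are αβ dimers that bind laminins, collagens, fibronectin, or proteins on other cells, and they tie these to the cytoskeleton. In the lung, the alveolar epithelium and the capillary endothelium share a fused basement membrane, and leukocytes carry integrins of their own for adhesion to vessels.

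Transcripts were counted by unique molecular identifiers (UMIs), so that amplified copies of 1 molecule are counted once. Because 3' ends are counted, a count does not grow with transcript length. Levels of different genes are set side by side on that basis, but other differences between genes, such as overlap with a neighboring gene, were not corrected. Of 9644 deposited cells, 7642 passed the filters here, with a median of 4853 to 7119 UMIs per cell in each mouse. Clusters gave 6820 cells a class (955 endothelial, 1305 epithelial, 1538 stromal, and 3022 immune) and 6957 cells 1 of 24 types. Names ending in "-like" or "-type" rest on marker genes, and no integrin or laminin was used to cluster or name cells. The 6 epithelial markers, among them *Epcam* and *Cdh1*, summed to 2463 to 2998 counts-per-million (CPM) of all UMIs in AT1-like cells and to 0.996 to 8.01 CPM in *Aplnr*-type capillary ECs. The 6 endothelial markers, among them *Pecam1* and *Cdh5*, summed to 9471 to 9857 CPM in the latter and to 11.998 to 84.2 CPM in the former. In 4 of the 24 types a cluster differed over 2-fold in median UMIs from the largest cluster of its type, and results that rest on these clusters are given below with and without them. Levels per mouse are given as CPM in the order mouse 2, mouse 3, and mouse 4. Statements that mice or groups do or do not overlap describe these values. For members called on the same sums they are no further test, and the share of all genes without overlap was not counted.

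Integrin and laminin genes together held 0.243%, 0.225%, and 0.246% of the UMIs of the 3 mice. *Itgb1*, the β chain shared by most integrins, was the only member found in every named type at a mean of over 10 CPM, while *Lama1* was too low to be tested at all, *Itgad* between classes, and *Itga11* between types.

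Promoter sequences were available for 24 of the 38 symbols, in 27 RefSeq entries on GRCm38.p6. Of these, 4 are shown because their genes were called between neighboring cell types below. Where a gene has more than 1 entry, as *Lamb3* and *Itgb6* do, the first is shown. Each run covers the 210 bases from 250 to 41 bases before the start of its RefSeq entry, read 5′ to 3′ on the gene's strand. The runs lie at chr1:193301744-193301953 (plus strand, *Lamb3*), chr2:60722644-60722853 (minus, *Itgb6*), chr7:128062390-128062599 (plus, *Itgam*), and chr7:128129300-128129509 (plus, *Itgax*). The *Lamb3* run lies inside the gene as placed by GENCODE M21 (chr1:193207699-193343878) and not before its first base there. Capitals mark matches on either strand to GAGGAA, the core bound by the myeloid factor PU.1, or to TGANTCA, the AP-1 site.

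Lamb3: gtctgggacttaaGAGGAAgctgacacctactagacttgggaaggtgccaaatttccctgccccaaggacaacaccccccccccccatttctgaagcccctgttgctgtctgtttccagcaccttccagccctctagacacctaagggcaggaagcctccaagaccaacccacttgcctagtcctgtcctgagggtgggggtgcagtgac
Itgb6: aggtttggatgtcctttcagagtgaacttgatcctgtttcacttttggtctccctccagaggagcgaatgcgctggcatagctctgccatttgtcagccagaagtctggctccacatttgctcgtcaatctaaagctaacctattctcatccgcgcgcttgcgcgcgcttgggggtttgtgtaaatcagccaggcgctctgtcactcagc
Itgam: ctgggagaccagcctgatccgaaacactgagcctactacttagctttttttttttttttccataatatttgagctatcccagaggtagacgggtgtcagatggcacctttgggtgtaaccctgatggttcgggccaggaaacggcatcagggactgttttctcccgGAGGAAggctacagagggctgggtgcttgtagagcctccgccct
Itgax: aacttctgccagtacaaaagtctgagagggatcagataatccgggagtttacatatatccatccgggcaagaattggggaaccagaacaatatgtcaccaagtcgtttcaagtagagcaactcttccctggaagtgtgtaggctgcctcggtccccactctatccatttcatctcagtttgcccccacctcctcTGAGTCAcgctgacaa

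GAGGAA was in 19.6% of all 32851 promoter windows of the same length and in 10 of the 27 of integrins and laminins, TGANTCA in 5.84% and in 1 of 27, and CATTCC, the TEAD site, in 11.1% and in 2 of 27. None of the 4 runs shown holds more than 1 of the 3 motifs, so no matches overlap there. A match is a description of the letters only, and the epithelial *Lamb3* and the myeloid *Itgam* each held 1 GAGGAA in the window shown. The second *Lamb3* entry, not shown, held no GAGGAA but 1 CATTCC, and the second *Itgb6* entry held none of the 3 motifs.

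**Figure D1:**
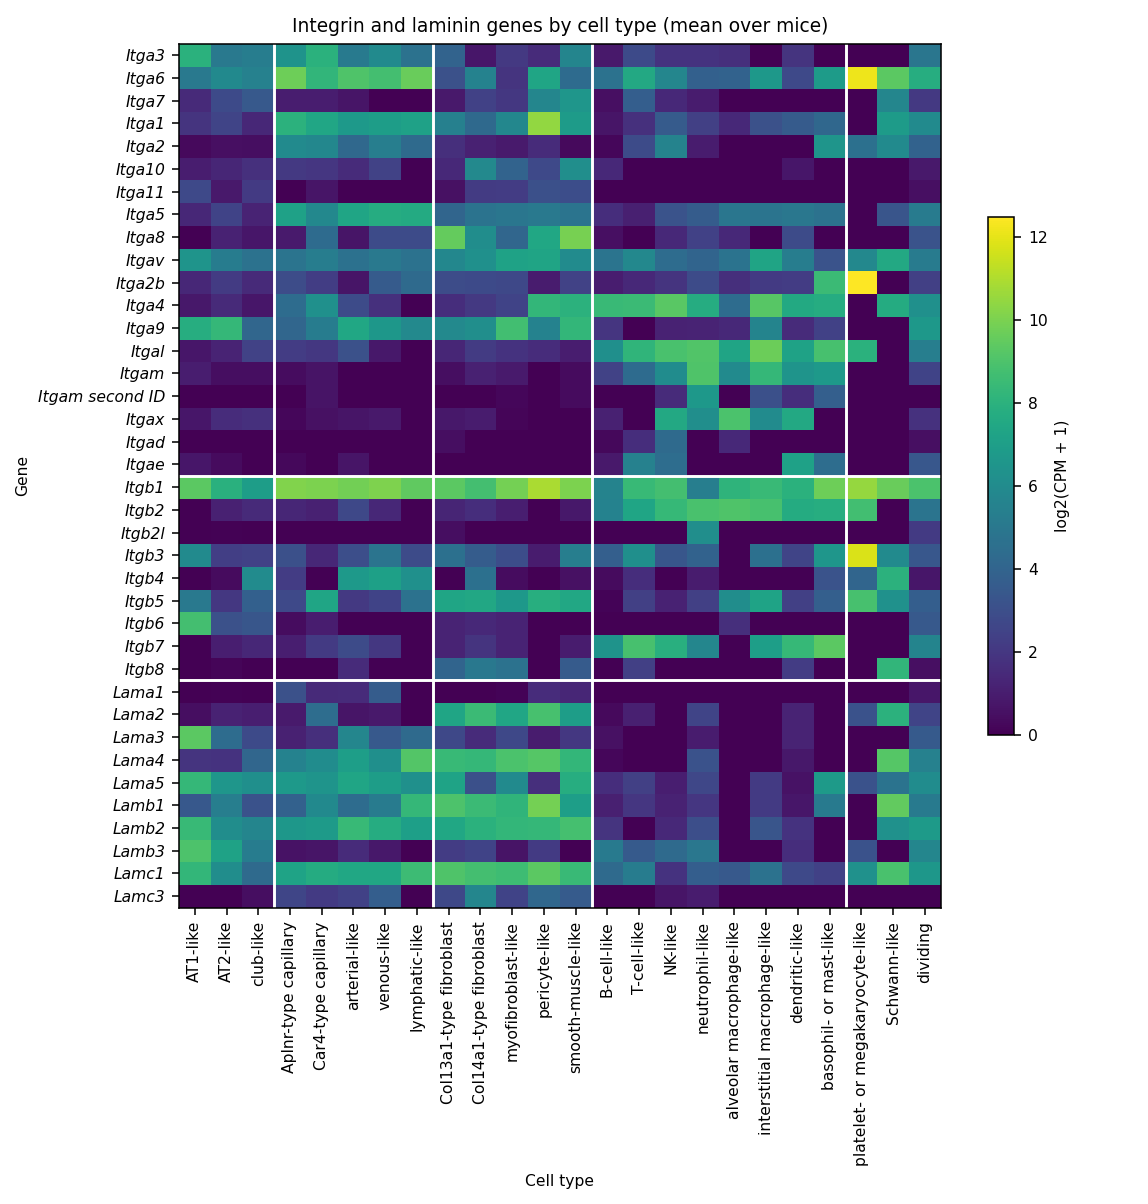
Mean level over mice of integrin and laminin genes (rows) in each of 24 cell types (columns), as log2(CPM + 1). Rows are grouped as integrin α, integrin β, and laminin genes. Leukocyte integrins fill the immune columns, *Lama3*, *Lamb3*, and *Itgb6* are brightest in AT1-like cells, and *Itgb1* is present throughout. Of the 24 types, 20 have sums from 3 mice.

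Counts were first summed per mouse and class, and each class was tested against each other class with edgeR. Of the 39 features, 37 passed the filter on low counts, and 33 were higher in 1 class than in each of the 3 others. Stromal cells had 12 of them (32.4% of those tested, against 15.2% of all 14209 genes), immune cells 10 (27.0% against 23%), epithelial cells 6 (16.2% against 16.9%), and ECs 5 (13.5% against 10.7%). The shares of epithelial cells, ECs, and immune cells were near those of all genes. The median log2 fold over the nearest class was 2.30 for the members called in stromal cells, 6.06 in immune cells, 3.34 in epithelial cells, and 2.26 in ECs, where the medians over all genes called were 1.40, 0.97, 1.32, and 0.99. The folds are scaled by TMM factors, which were 1.15 to 1.16 in ECs, 1.06 to 1.08 in stromal sums, 0.944 to 0.994 in immune sums, and 0.790 to 0.860 in epithelial sums, so that epithelial cells stand higher in the fit than in CPM.

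Among laminin α chains, *Lama3*, the α chain of laminin-332, was at 93.1, 71.3, and 114 CPM in epithelial cells and at 8.50, 11.7, and 13.7 CPM in ECs (log2 fold 3.53 ± 0.21 (SE), adjusted p = 9.17e-10). *Lama2*, the α chain of muscle and mesenchymal basement membranes, was at 207, 171, and 180.5 CPM in stromal cells and at 2.64, 4.29, and 6.84 CPM in ECs (log2 fold 5.42 ± 0.19 (SE), adjusted p = 4.64e-12). *Lama4*, known from vessel walls, was at 443, 396, and 414 CPM in stromal cells and at 78.5, 72.2, and 93.8 CPM in ECs (log2 fold 2.46 ± 0.16 (SE), adjusted p = 4.02e-09). For these 3 chains every mouse of the leading class lay above every mouse of the next. *Lama5*, the broad epithelial and endothelial α chain, was close in 3 classes, at 117, 115, and 124 CPM in epithelial cells, 125, 109, and 114 CPM in ECs, and 98.8, 115, and 101 CPM in stromal cells. The mice of these classes overlapped in CPM, and the epithelial call (0.52 ± 0.08 (SE), adjusted p = 5.65e-05) followed the TMM scaling. *Lama1*, the embryonic α chain, was at or under 8.79 CPM in every class.

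Of the β chains, *Lamb3*, the partner of *Lama3* in laminin-332, was epithelial. It was at 191, 160.0, and 178 CPM in epithelial cells and at 24.2, 21.4, and 25.3 CPM in immune cells (log2 fold 3.16 ± 0.16 (SE), adjusted p = 1.07e-10). It was higher in epithelial cells in all 3 mice. The *Lamb3* gene (chr1:193207699-193343878, plus strand) overlaps *G0s2* and *Hsd11b1* on the other strand, and whether counting used strand is not stated in the sources used here. In pericyte-like cells *Hsd11b1* was at 1048 to 1473 CPM, and *Lamb3* made up 0.271% ± 0.254% of laminin β UMIs (mean ± SD, n = 3). In neutrophil-like cells *G0s2* was at 4984 to 7962 CPM, and in B-cell-like cells at 2.76 to 3.23 CPM. *Lamb3* was not called between these 2 types in edgeR without clusters of a far depth (log2 fold 0.38 ± 0.39 (SE), adjusted p = 0.476). The part of *G0s2* and *Hsd11b1* in the *Lamb3* count was not tested.

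The chains *Lamb1*, *Lamb2*, *Lamc1*, and *Lamc3* were stromal. *Lamb1* was at 324, 299, and 318 CPM in stromal cells and at 31.8, 33.4, and 32.4 CPM in epithelial cells (log2 fold 2.90 ± 0.08 (SE), adjusted p = 3.01e-13). *Lamb2*, the β chain of mature vessel and muscle basement membranes, was at 333, 309, and 317 CPM in stromal cells and at 161, 157, and 149 CPM in ECs (log2 fold 1.15 ± 0.12 (SE), adjusted p = 7.4e-07). *Lamc1*, the γ chain of most laminins, was at 401, 429, and 396 CPM in stromal cells and at 174, 177, and 173 CPM in ECs (log2 fold 1.34 ± 0.07 (SE), adjusted p = 5.06e-10). The groups did not overlap for any of the 3 genes. *Lamc3* was low, at 14.2, 9.64, and 8.22 CPM in stromal cells and 4.69, 6.25, and 5.47 CPM in ECs (log2 fold 1.09 ± 0.29 (SE), adjusted p = 0.00476), and the call was lost without mouse 2 (log2 fold 0.72).

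**Figure D2:**
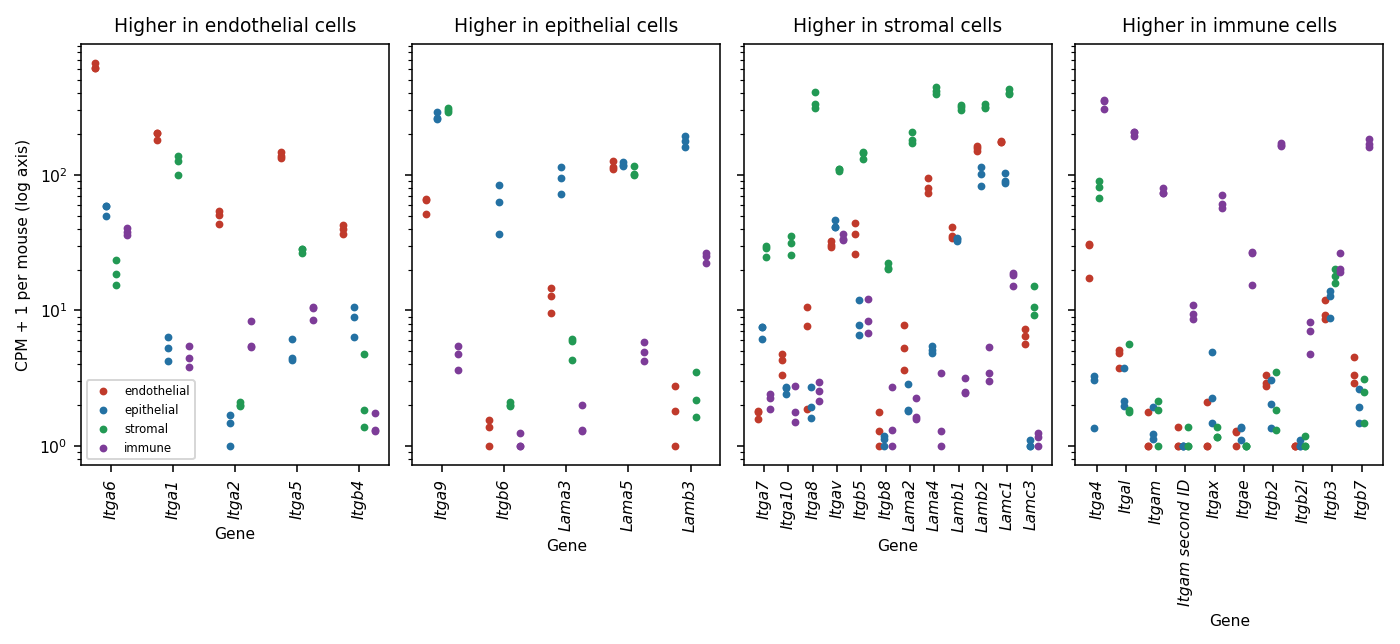
Level of members called higher in 1 class, as CPM + 1 on a log axis, with 1 point per mouse (n = 3) and 1 color per class, in 4 panels by the class that is higher. *Itga6* stands apart in ECs (613 to 668 CPM), whereas points of 3 classes overlap for *Lama5* and stromal points lie at or above the epithelial ones for *Itga9*.

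Among the α chains that bind laminin, *Itga6* was the most abundant in ECs, at 618, 613, and 668 CPM, against 48.4, 57.7, and 58.2 CPM in epithelial cells (log2 fold 3.05 ± 0.10 (SE), adjusted p = 1.96e-12). *Itga7*, an α chain of muscle cells, was at 28.7, 27.8, and 23.9 CPM in stromal cells and 6.57, 6.50, and 5.19 CPM in epithelial cells (log2 fold 1.77 ± 0.15 (SE), adjusted p = 6.68e-08). *Itga3*, the main α chain for laminin-332 and laminin-511 on epithelium, was at 91.4, 116, and 94.6 CPM in ECs and 62.1, 52.2, and 64.6 CPM in epithelial cells. That difference did not pass in every contrast (log2 fold 0.25 ± 0.12 (SE), adjusted p = 0.0863 against the nearest class). *Itgb4*, which pairs only with *Itga6* and anchors hemidesmosomes, was at 35.4, 41.4, and 39.1 CPM in ECs and 8.01, 9.65, and 5.42 CPM in epithelial cells (log2 fold 1.87 ± 0.30 (SE), adjusted p = 4.95e-05). Both chains of this dimer were thus higher in the EC class in all 3 mice, but this class pools types that differ in *Itgb4*. Of its 370 UMIs in ECs, 14 were in *Aplnr*-type and 0 in *Car4*-type capillary cells. *Itgb4* made up 9.93% ± 2.16% of integrin β UMIs in arterial-like and 11.2% ± 1.57% in venous-like cells (mean ± SD, n = 3). In club-like cells, which are epithelial, it made up 29.6% ± 5.71%.

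Of the collagen-binding α chains, *Itga1* was at 202, 178, and 203 CPM in ECs and 138, 98.3, and 126 CPM in stromal cells (log2 fold 0.58 ± 0.12 (SE), adjusted p = 0.000697). *Itga1* overlaps *Pelo* on the same strand, which was at 96.1 to 126 CPM in *Aplnr*-type capillary ECs and 245 to 314 CPM in pericyte-like cells. *Itga2* was at 42.8, 52.7, and 49.8 CPM in ECs and 4.37, 7.34, and 4.47 CPM in immune cells (log2 fold 2.84 ± 0.22 (SE), adjusted p = 2.1e-08). *Itga10*, known from cartilage, was at 24.5, 34.5, and 30.7 CPM in stromal cells and 3.81, 2.34, and 3.28 CPM in ECs (log2 fold 3.32 ± 0.24 (SE), adjusted p = 1.26e-08). The mice of the 2 classes did not overlap for any of these genes. *Itga11*, the fibroblast collagen receptor, reached only 4.33, 5.01, and 2.85 CPM in stromal cells and was not called.

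The α chains that read the RGD motif of fibronectin and related proteins were split between ECs and stromal cells. *Itga5*, the fibronectin receptor, was at 137, 131, and 146 CPM in ECs and 25.3, 27.2, and 27.5 CPM in stromal cells (log2 fold 2.26 ± 0.10 (SE), adjusted p = 5.84e-11). *Itga8*, the receptor of nephronectin, was at 311, 410.3, and 335 CPM in stromal cells and 0.879, 6.64, and 9.57 CPM in ECs (log2 fold 6.05 ± 0.28 (SE), adjusted p = 6.32e-11). *Itgav* was at 105, 109, and 110.4 CPM in stromal cells and 40.5, 40.1, and 45.5 CPM in epithelial cells (log2 fold 0.99 ± 0.07 (SE), adjusted p = 1.1e-08). All 3 were higher in each mouse of the leading class. *Itga2b*, the platelet α chain, was at or under 8.44 CPM in every class and not called.

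The β partners of *Itgav* fell into 3 classes. *Itgb6*, the epithelial partner that activates latent TGF-β, was at 62.6, 35.6, and 82.9 CPM in epithelial cells and 1.00, 0.964, and 1.11 CPM in stromal cells (log2 fold 6.24 ± 0.38 (SE), adjusted p = 3.59e-09). *Itgb5* was at 143, 146, and 129 CPM in stromal cells and 24.9, 43.3, and 35.8 CPM in ECs (log2 fold 2.14 ± 0.18 (SE), adjusted p = 7.22e-08), and *Itgb8*, the other activator of latent TGF-β, was at 21.3, 19.3, and 19.6 CPM in stromal cells and 0, 0.312, and 1.74 CPM in immune cells (log2 fold 4.76 ± 0.46 (SE), adjusted p = 2.92e-07). These 3 genes did not overlap between classes. *Itgb3* differed little, at 19.2, 25.6, and 18.4 CPM in immune cells and 16.8, 19.1, and 15.0 CPM in stromal cells (log2 fold 0.48 ± 0.19 (SE), adjusted p = 0.0314), and the call was lost without any 1 mouse (log2 folds 0.33 to 0.52). *Itgb1* was at 992, 1042, and 1076 CPM in ECs, 937, 888, and 927 CPM in stromal cells, 266, 269.6, and 289 CPM in epithelial cells, and 141, 154, and 154 CPM in immune cells. ECs and stromal cells did not differ in the fit (log2 fold 0.06 ± 0.08 (SE), adjusted p = 0.514).

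Of the leukocyte integrins, a list made of genes known from leukocytes, the 3 β chains and 6 of 8 α features were called in immune cells. Of all genes, 23% were called there, and the 6 α features include both *Itgam* identifiers, which overlap. *Itgb2*, the β2 chain of LFA-1 and Mac-1, was at 171, 165, and 162 CPM in immune cells and 1.76, 2.34, and 1.91 CPM in ECs (log2 fold 6.62 ± 0.26 (SE), adjusted p = 7.43e-12). *Itgb7*, the β chain of mucosal homing integrins, was at 182, 159, and 169 CPM and 3.52, 2.34, and 1.91 CPM, respectively (log2 fold 6.26 ± 0.22 (SE), adjusted p = 2.59e-12). *Itgb2l*, a β2-like gene of neutrophils, was at 3.79, 6.09, and 7.20 CPM in immune cells and at 0 to 0.193 CPM in all other sums (log2 fold 6.25 ± 0.68 (SE), adjusted p = 6.95e-06). The immune sums were the highest for each in all 3 mice.

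Among their α chains, *Itgal* of LFA-1 was at 192, 207, and 208 CPM in immune cells and 4.10, 2.73, and 3.83 CPM in ECs (log2 fold 6.04 ± 0.27 (SE), adjusted p = 3e-11), and *Itgam* of Mac-1 was at 72.2, 72.5, and 78.7 CPM against at most 1.16 CPM elsewhere (log2 fold 6.97 ± 0.33 (SE), adjusted p = 1.78e-10). *Itgax*, the CD11c chain, was at 69.9, 59.5, and 55.6 CPM in immune cells and 0.478, 3.90, and 1.27 CPM in epithelial cells (log2 fold 4.99 ± 0.33 (SE), adjusted p = 3.4e-09). *Itgae*, the CD103 chain, was at 26.2, 14.4, and 25.3 CPM against at most 0.371 CPM elsewhere (log2 fold 6.00 ± 0.43 (SE), adjusted p = 1.06e-07). These α chains were thus nearly absent outside immune cells. *Itga4*, which pairs with *Itgb1* or *Itgb7*, was less bound to the class, at 304, 348, and 354 CPM in immune cells and 89.0, 66.5, and 80.3 CPM in stromal cells (log2 fold 2.23 ± 0.16 (SE), adjusted p = 7.67e-09). The second *Itgam* identifier (ENSMUSG00000108596) was at 9.90, 8.44, and 7.70 CPM in immune cells (log2 fold 6.08 ± 0.61 (SE), adjusted p = 4.56e-06). It lies at chr7:128062683-128128160 on the plus strand, over the first (ENSMUSG00000030786, chr7:128062640-128118491, plus strand), so that the 2 can share reads and their split is uncertain. *Itgad* reached at most 3.20 CPM. *Itga9*, which binds tenascin C and lymphatic ligands, was no leukocyte gene here, at 261, 288, and 259 CPM in epithelial and 288, 301, and 313 CPM in stromal cells. Its epithelial call (log2 fold 0.21 ± 0.08 (SE), adjusted p = 0.0401) had the opposite direction in CPM, and it was lost without any 1 mouse.

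Neighboring cell types were then compared within classes, in 8 pairs, with sums per mouse and type (66 sums, 13563 genes, 37 members tested in each pair). Together, 36 of the 39 features were called in a class or in a pair. The share of all genes called in any of these comparisons was not counted, so this number only accounts for the members. *Itga2b*, *Itga3*, and *Itgb1* were called in a pair of types only, and *Itga11*, *Itgad*, and *Lama1* in none.

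AT1-like cells, the flat gas-exchange cells, carried far more *Lama3* and *Itgb6* than AT2-like cells, the surfactant-making cells. Of 37 members, 12 were higher in AT1-like cells (32.4%, against 12.7% of all genes) and 5 in AT2-like cells (13.5% against 18.4%). *Lama3* was at 680.0, 616, and 632 CPM in AT1-like and 20.9, 17.6, and 23.1 CPM in AT2-like cells (log2 fold 4.58 ± 0.19 (SE), adjusted p = 9.81e-25). *Lamb3* was at 604, 442, and 505 CPM and 152, 148, and 132 CPM (log2 fold 1.49 ± 0.17 (SE), adjusted p = 2.6e-10). The lowest AT1-like mouse was above the highest AT2-like mouse for both, and *Lamb3* differed less than *Lama3*. The more general chains were also higher in AT1-like cells. *Lama5* was at 346, 312, and 304 CPM in AT1-like and 89.1, 97.5, and 96.7 CPM in AT2-like cells, *Lamb2* at 356, 292, and 362 CPM and 70.7, 64.3, and 72.0 CPM, and *Lamc1* at 301, 292, and 335 CPM and 67.0, 75.5, and 66.2 CPM (log2 folds 1.40, 1.93, and 1.80). *Lamb1* was the exception, at 10.7, 10.0, and 8.34 CPM and 38.9, 39.9, and 40.5 CPM (log2 fold -2.41 ± 0.36 (SE), adjusted p = 2.49e-07).

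Several integrin chains also differed. *Itgb6* was at 501, 318, and 497 CPM in AT1-like and 6.98, 6.57, and 8.88 CPM in AT2-like cells (log2 fold 5.50 ± 0.24 (SE), adjusted p = 1.84e-19). *Itga3* was at 292, 222, and 250.2 CPM and 33.6, 32.8, and 30.7 CPM (log2 fold 2.62 ± 0.18 (SE), adjusted p = 8.35e-18). *Itgb3*, another partner of *Itgav*, was at 79.5, 46.0, and 58.4 CPM and 4.50, 3.75, and 3.58 CPM, and *Itgb5* at 22.6, 34.0, and 39.4 CPM and 2.48, 2.11, and 4.83 CPM (log2 folds 3.59 and 2.92). None of these groups overlapped. Smaller differences were found for *Itgb1*, at 694, 568, and 674 CPM and 228, 256, and 234 CPM, and for *Itgav*, at 96.7, 78.0, and 88.0 CPM and 34.3, 37.8, and 40.2 CPM (log2 folds 1.07 and 0.88). The other laminin-binding chain, *Itga6*, was lower in AT1-like cells, at 18.3, 32.0, and 46.3 CPM against 54.3, 60.5, and 64.5 CPM (log2 fold -1.19 ± 0.36 (SE), adjusted p = 0.00705). *Itga9* was at 199, 232, and 219.9 CPM in AT1-like and 307, 334, and 302 CPM in AT2-like cells (log2 fold -0.90 ± 0.16 (SE), adjusted p = 1.11e-05). *Itga5* and *Itga7* were at or under 7.03 CPM in both types, with log2 folds of -1.70 and -2.01. The call of *Itga5* was lost without mouse 4 and that of *Itga7* without mouse 2. *Itgb4* had no UMI in the 166 AT1-like cells.

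One AT1-like cluster of 37 cells had a median of 35994 UMIs against 6208 in the main AT1-like cluster, and the 6 AT2 markers summed to 117514 CPM in it against 803 to 4938 CPM in the other AT1-like cells. Without it, in an alternative chosen after seeing the data, the 17 calls kept their direction and *Lama3* was at 913 ± 61.3 CPM in AT1-like cells (mean ± SD, n = 3). The low AT1-like levels of *Lamb1*, *Itga5*, and *Itga7* came from that cluster. In the other AT1-like cells *Lamb1* had 1 UMI (log2 fold -5.85 ± 0.79 (SE), adjusted p = 1.65e-08), and *Itga5* and *Itga7* had 0. In single cells, UMIs of *Lama3* were found in 121 of 166 AT1-like cells (72.9%; exact 95% binomial interval, 65.5% to 79.5%, counting error only), 267 of 1043 AT2-like cells (25.6%), and 4 of 1784 B-cell-like cells (0.224%). Median UMIs per cell were 13462 in AT1-like, 16194 in AT2-like, and 3961 in B-cell-like cells. With each cell thinned to 2000 UMIs, which left 118 AT1-like and 1033 AT2-like cells, the share was 67.4% ± 4.13% in AT1-like cells, 4.07% ± 0.226% in AT2-like cells, and 0.1005% ± 0.103% in B-cell-like cells (mean ± SD, n = 3). The share of cells with a *Lama3* UMI was thus higher in AT1-like than in AT2-like cells at both depths.

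**Figure D3:**
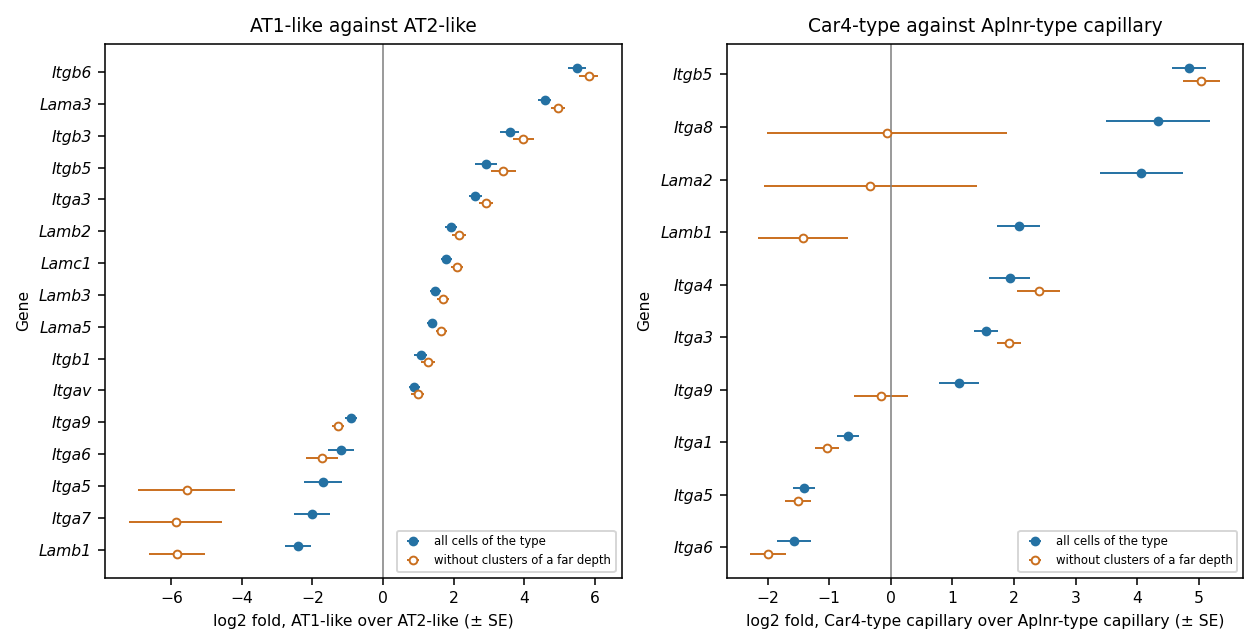
Log2 fold (± SE) of members called between AT1-like and AT2-like cells (left) and between *Car4*-type and *Aplnr*-type capillary ECs (right), over all cells of the type (filled) and without clusters of a far depth (open). In the left panel every open point keeps its side of 0, whereas in the right panel *Itga8*, *Lama2*, *Itga9*, and *Lamb1* cross it.

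The 2 kinds of capillary ECs differed in several integrin chains. *Aplnr*-type cells are the general capillary cells, and *Car4*-type cells are the large ones that face the alveolus. Of 37 members, 7 were higher in *Car4*-type cells (18.9%, against 5.27% of all genes) and 3 in *Aplnr*-type cells (8.11% against 3.35%). *Itgb5* was at 133, 169, and 176 CPM in *Car4*-type and 4.04, 8.97, and 4.27 CPM in *Aplnr*-type cells (log2 fold 4.84 ± 0.28 (SE), adjusted p = 6.17e-20). *Itga3* was at 238, 269.5, and 235 CPM and 86.5, 96.6, and 66.2 CPM (log2 fold 1.54 ± 0.19 (SE), adjusted p = 2.34e-08), and *Itga4* at 44.3, 82.6, and 98.9 CPM and 15.6, 25.9, and 18.7 CPM (log2 fold 1.93 ± 0.34 (SE), adjusted p = 3.22e-05). These were higher in all 3 mice. The chains *Itga6*, at 266, 241, and 376 CPM and 794, 842, and 912 CPM (log2 fold -1.57 ± 0.28 (SE), adjusted p = 4.31e-05), and *Itga5*, at 57.2, 62.9, and 45.7 CPM and 136, 128, and 156 CPM (log2 fold -1.41 ± 0.18 (SE), adjusted p = 6.53e-08), were higher in *Aplnr*-type cells. *Itga1* was at 146, 153, and 204 CPM and 264, 251, and 274 CPM (log2 fold -0.69 ± 0.18 (SE), adjusted p = 0.00775), a call lost without mouse 2. *Car4*-type cells thus had a higher level of *Itga3* and a lower level of *Itga6*, both α chains for laminin.

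The other 4 calls rested on 1 cluster. Of the 178 *Car4*-type cells, 85 came from a cluster with a median of 938 UMIs, against 9148 in the main *Car4*-type cluster, and 7 stromal markers summed to 2194 to 6147 CPM in it, against 161 to 361 CPM in the other *Car4*-type cells. *Itga8* was at 6.16, 69.7, and 77.1 CPM in that cluster and at 0, 0, and 2.83 CPM in the other *Car4*-type cells. *Lama2* was at 49.3, 57.0, and 61.6 CPM and at 2.63, 0, and 0 CPM. *Lamb1* was at 154, 139, and 173 CPM and at 5.27, 7.52, and 2.83 CPM, and *Itga9* at 148, 82.4, and 27.7 CPM and at 13.2, 20.1, and 11.3 CPM. All 4 were therefore low in the cells of ordinary depth. Without clusters of a far depth, the log2 folds were -0.06 ± 1.94 (SE), adjusted p = 1 for *Itga8*, -0.33 ± 1.73 (SE), adjusted p = 1 for *Lama2*, -0.16 ± 0.44 (SE), adjusted p = 0.958 for *Itga9*, and -1.43 ± 0.73 (SE), adjusted p = 0.296 for *Lamb1*. The 6 other calls remained, and 3 were added, *Lama4*, *Lama5*, and *Itgb3*, all higher in *Aplnr*-type cells. *Lama4* had a log2 fold of -2.03 ± 0.47 (SE), adjusted p = 0.00259, and *Lama5* one of -0.65 ± 0.21 (SE), adjusted p = 0.044. In this setting only *Itgb5*, *Itga3*, and *Itga4* were called higher in *Car4*-type cells, so that most calls went toward *Aplnr*-type cells. The part of stromal RNA in these calls was not tested.

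Arterial-like and venous-like ECs differed in few members, 3 higher in arterial-like (8.11%, against 3.75% of all genes) and 2 in venous-like cells (5.41% against 4.14%). *Lama3* was at 37.1, 45.2, and 74.5 CPM in arterial-like and 6.80, 11.95, and 11.8 CPM in venous-like cells (log2 fold 2.33 ± 0.47 (SE), adjusted p = 0.000323). It was called with each mouse left out. *Itga9* was at 158, 151, and 210.5 CPM and 61.2, 108, and 120.4 CPM (log2 fold 0.83 ± 0.23 (SE), adjusted p = 0.0116), and *Lamb2* at 362, 301, and 358 CPM and 229, 213, and 194 CPM (log2 fold 0.67 ± 0.20 (SE), adjusted p = 0.027). *Itgb3* was at 5.57, 7.87, and 7.45 CPM and 29.5, 19.1, and 33.0 CPM (log2 fold -1.97 ± 0.56 (SE), adjusted p = 0.0155). *Itga2b* had 1 UMI in arterial-like and 14 in venous-like cells, a ratio of 17.3-fold (95% counting interval, 2.63 to 731) in favor of the latter. Groups did not overlap for any of the 5 genes, but without mouse 2 or mouse 4 only 2 and 1 members, respectively, were called. UMIs of *Itga6* and *Itgb4* were found together in 75 of 107 venous-like cells (70.1%) and 41 of 162 arterial-like cells (25.3%). At 2000 UMIs per cell the shares were 15.1% ± 1.85% and 5.20% ± 1.41% (mean ± SD, n = 3), and B-cell-like cells had 0.00787% ± 0.00682%. In the summed counts neither *Itga6* nor *Itgb4* was called between the 2 types. *Itgb4* made up 11.2% ± 1.57% of integrin β UMIs in venous-like and 9.93% ± 2.16% in arterial-like cells.

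In stromal cells, fibroblast types differed in *Itga8*, *Itga9*, and *Itga10*, among others. The myofibroblast-like cells pool clusters with different leading genes, which are given at the end. Of 37 members, 8 were higher in *Col13a1*-type fibroblasts (21.6%, against 12.9% of all genes) and 7 in myofibroblast-like cells (18.9% against 14.3%). *Itga8* was at 737, 771, and 758 CPM in *Col13a1*-type and 21.2, 10.8, and 17.0 CPM in myofibroblast-like cells (log2 fold 5.52 ± 0.27 (SE), adjusted p = 2.23e-22). *Itga9* was at 50.5, 63.6, and 59.2 CPM and 392, 465, and 415 CPM (log2 fold -2.82 ± 0.20 (SE), adjusted p = 1.55e-17). The 2 α chains thus ran in opposite directions. Toward myofibroblast-like cells were also *Itgav*, at 66.7, 46.4, and 49.3 CPM and 134, 166, and 142 CPM (log2 fold -1.42 ± 0.16 (SE), adjusted p = 1.69e-10), and *Itga10*, at 1.63, 2.16, and 1.41 CPM and 12.1, 16.7, and 15.6 CPM (log2 fold -2.92). *Lamb2* was at 179, 188, and 151 CPM and 334, 291, and 308 CPM, and *Lama4* at 329, 321, and 365 CPM and 516, 522, and 458 CPM (log2 folds -0.81 and -0.52). *Itgb1* was at 622, 667, and 668 CPM and 928, 942, and 919 CPM, and *Itga5* at 19.5, 16.2, and 12.7 CPM and 26.4, 29.3, and 29.9 CPM (log2 folds -0.47 and -0.79). The calls of *Itgb1* and *Itga5* were lost without any 1 mouse, and that of *Lama4* without mouse 2 or mouse 3.

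Toward *Col13a1*-type fibroblasts, *Lama5* was at 142, 172, and 144 CPM and 66.5, 59.5, and 62.2 CPM (log2 fold 1.32 ± 0.16 (SE), adjusted p = 2.07e-09), and *Lamb1* at 483, 526, and 503 CPM and 277, 283, and 304 CPM (log2 fold 0.85 ± 0.18 (SE), adjusted p = 0.000227). *Lamc1* was at 498, 556, and 526 CPM and 365, 411, and 378 CPM (log2 fold 0.49), a call lost without mouse 4. Among the integrins, *Itgb5* was at 186, 161, and 134 CPM and 108, 93.8, and 99.6 CPM, *Itgb3* at 32.5, 20.5, and 16.9 CPM and 8.48, 5.41, and 6.70 CPM, and *Itga3* at 11.4, 21.6, and 11.3 CPM and 2.61, 3.61, and 3.63 CPM (log2 folds 0.70, 1.73, and 2.23). Except for *Lamb3*, the 15 called members did not overlap between the 2 types, which describes the same sums that gave the calls. *Lamb3* rested on mouse 3, with 0, 9.71, and 1.41 CPM against 0.978, 0.451, and 0.279 CPM (log2 fold 2.73, and 0.34 without mouse 3).

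Pericyte-like cells were next set against smooth-muscle-like cells, whose marker list did not separate vessel from airway muscle. The 2 types differed in 17 members, 8 higher in pericyte-like cells (21.6%, against 9.59% of all genes) and 9 in smooth-muscle-like cells (24.3% against 14%). *Itga1* was at 1318, 1611, and 1266 CPM in pericyte-like cells, its highest level in any type, and 121, 79.5, and 142 CPM in smooth-muscle-like cells (log2 fold 3.37 ± 0.18 (SE), adjusted p = 2.93e-22). *Itga6* was at 221, 129, and 142 CPM and 18.8, 15.3, and 24.8 CPM (log2 fold 2.89 ± 0.42 (SE), adjusted p = 1.05e-07). *Lamb1* was at 1048, 879, and 903 CPM and 153, 90.7, and 135 CPM (log2 fold 2.69 ± 0.21 (SE), adjusted p = 9.11e-16). These were separate in every mouse. *Lama2* was at 445, 529, and 429 CPM and 141, 108, and 123 CPM, *Lama4* at 686, 486, and 570.1 CPM and 309.9, 282, and 322 CPM, and *Lamc1* at 611, 713, and 619.8 CPM and 348, 363, and 331 CPM (log2 folds 1.67, 0.74, and 0.67). *Itgav* was at 149, 178, and 142 CPM and 61.0, 63.4, and 65.1 CPM, and *Itgb1* at 1944, 2029.6, and 1726 CPM and 997, 1051, and 1062 CPM (log2 folds 1.06 and 0.65). Pericyte-like cells thus had the chains *Lama2*, *Lama4*, *Lamb1*, and *Lamc1* all at a higher level.

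Smooth-muscle-like cells led in *Itga8*, at 839, 1075, and 1019 CPM against 152, 185, and 184 CPM (log2 fold -2.73 ± 0.27 (SE), adjusted p = 7.67e-12), and in *Itga9*, at 289.8, 350.0, and 289.6 CPM against 60.3, 18.5, and 57.4 CPM (log2 fold -2.84 ± 0.26 (SE), adjusted p = 5.11e-13). *Lama5* was at 198, 242, and 221 CPM in smooth-muscle-like and 2.87, 0, and 3.83 CPM in pericyte-like cells, with 908 and 2 UMIs, a ratio of 84.5-fold (95% counting interval, 23.3 to 699). The pericyte-like cells therefore had next to no *Lama5*. *Itga3* was at 42.3, 55.4, and 52.4 CPM and 5.74, 0, and 0 CPM, a ratio of 19.2-fold (95% counting interval, 5.24 to 159), and *Itgb3* at 33.5, 44.2, and 40.4 CPM and 2.87, 0, and 0 CPM, a ratio of 30.2-fold (95% counting interval, 5.34 to 1198). *Itgb8*, with 13.4, 10.4, and 9.21 CPM and no UMI in pericyte-like cells, was at least 2.85-fold higher. *Itga10* was at 68.4, 69.0, and 75.1 CPM and 0, 6.15, and 11.5 CPM, *Itga7* at 95.9, 102, and 84.3 CPM and 45.9, 36.9, and 72.7 CPM, and *Lamb2* at 428, 478, and 429.8 CPM and 281, 338, and 329 CPM (log2 folds of pericyte-like over smooth-muscle-like cells -3.94, -1.04, and -0.73). The calls of *Lamb2*, *Itga7*, *Itgb8*, and *Lama4* were lost without mouse 2, and that of *Itga7* also without mouse 3. One pericyte-like cluster of 43 cells had a median of 775 UMIs against 7865 in the other, and all 17 calls held without it.

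Which α chain a cell type used was described as its share of all laminin α UMIs. AT1-like cells had 66.5% ± 0.807% *Lama3* and 33.2% ± 0.641% *Lama5* (mean ± SD, n = 3), and AT2-like cells 17.3% ± 2.19% *Lama3* and 79.4% ± 2.00% *Lama5*. The *Lama3* share was 65.8%, 66.4%, and 67.4% in AT1-like and 18.3%, 14.7%, and 18.7% in AT2-like cells, without overlap (exact 2-sided permutation test, p = 0.1, the lowest value possible with 3 mice per type). Of the ECs, arterial-like cells had 15.0% ± 2.92% *Lama3* and venous-like cells 4.77% ± 1.76% (exact p = 0.1). *Lama4* made up 36.2% ± 5.19% in *Car4*-type and 28.2% ± 5.56% in *Aplnr*-type cells (exact permutation test, p = 0.2). Those values overlapped, and the difference of 7.99 percentage points became -15.8 without clusters of a far depth.

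In stromal cells, *Lama4* had the highest mean share of 4 types, with 67.6% ± 2.27% in myofibroblast-like, 54.9% ± 6.60% in pericyte-like, 51.3% ± 3.41% in *Col13a1*-type, and 46.6% ± 2.26% in smooth-muscle-like cells. In *Col14a1*-type fibroblasts *Lama2* had the higher mean share, 52.2% ± 3.02% against 46.5% ± 2.78% for *Lama4*. The order of *Lama2* and *Lama4* was the other way round in 1 of 3 mice for both pericyte-like cells and *Col14a1*-type fibroblasts. The leading genes of the *Col14a1*-type cluster held the markers *Lum* and *Serpinf1* but also the cartilage genes *Col2a1*, *Col10a1*, and *Acan*, which go against a fibroblast, so the name stands only for the marker list. *Lama5* separated the pairs of neighbors, with 23.1% ± 2.35% in *Col13a1*-type against 8.52% ± 0.478% in myofibroblast-like cells, and 33.7% ± 3.71% in smooth-muscle-like against 0.211% ± 0.194% in pericyte-like cells (exact permutation test, p = 0.1 for each, without overlap). The 5 pairs of shares were compared without adjustment, because no p could fall below 0.1.

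The β chains were described in the same way, without a test. *Lamb3* made up 59.8% ± 2.29% of β chain UMIs in AT1-like and 56.9% ± 2.52% in AT2-like cells, and these shares overlapped. *Lamb2* made up 93.8% ± 2.36% in arterial-like and *Lamb1* 74.6% ± 3.73% in pericyte-like cells.

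**Figure D4:**
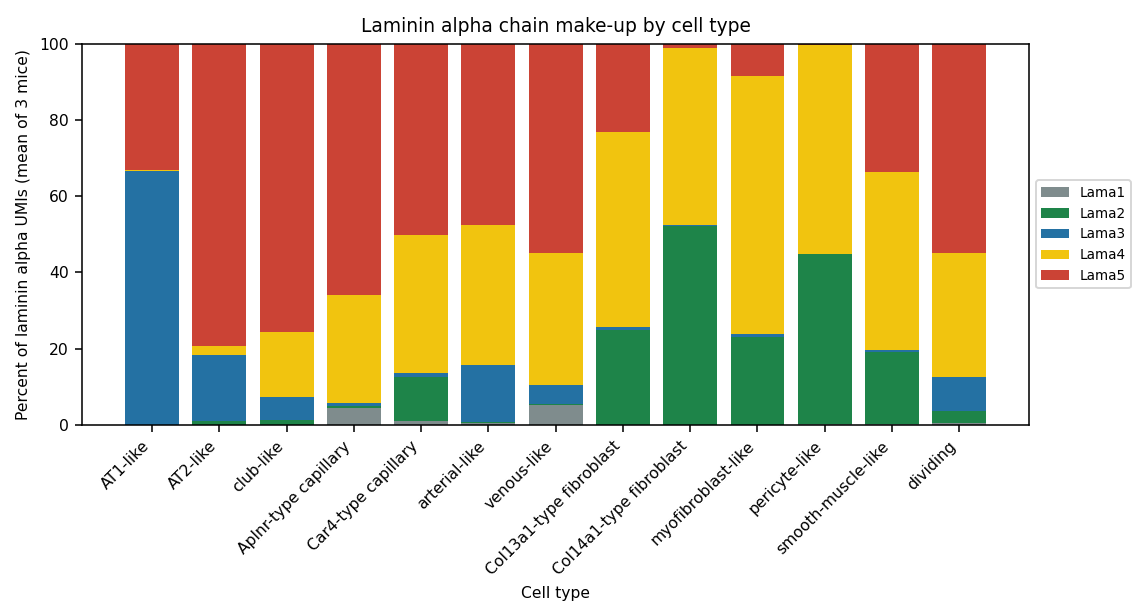
Share of each laminin α chain gene in all laminin α UMIs (percent, mean of 3 mice, stacked to 100) in 13 cell types with sums from 3 mice. By the mean, *Lama3* takes 66.5% in AT1-like cells, *Lama5* leads in AT2-like cells and most ECs, *Lama4* leads in myofibroblast-like and pericyte-like cells, and *Lama2* leads in *Col14a1*-type fibroblasts.

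Across 20 types with sums from 3 mice, mean levels (log2 CPM + 1) of chains known to pair were compared as a description, and all types come from the same 3 libraries. Pearson's r was 0.98 for *Itgal* and *Itgb2*, 0.94 for *Itgam* and *Itgb2*, and 0.51 for *Lama3* and *Lamb3*. For other laminin chains it was 0.91 (*Lama4* and *Lamb1*), 0.89 (*Lamc1* and *Lamb1*), and 0.88 (*Lama2* and *Lamb1*). It was 0.45 for *Itga6* and *Itgb4*, and 0.20 for *Itga2b* and *Itgb3*. Platelet- or megakaryocyte-like, Schwann-like, and lymphatic-like cells had sums from fewer mice and are not among the 20 types. The first of these had high levels of both *Itga2b* and *Itgb3*, so the r of that pair leaves out its main type. In *Aplnr*-type capillary ECs, *Itga6* was at 794, 842, and 912 CPM beside *Itgb4* at 2.31, 6.97, and 1.60 CPM, whereas venous-like cells had *Itga6* at 412, 499.6, and 406 CPM and *Itgb4* at 136, 127, and 149 CPM.

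Among leukocytes, neutrophil-like cells carried β2 integrins at levels far above those of B-cell-like cells. Of 37 members, 13 were higher in neutrophil-like cells (35.1%, against 20.6% of all genes) and 0 in B-cell-like cells (against 26.4%). For the latter direction, edgeR gave 0 members at an unadjusted p under 0.05 and DESeq2 called 0. Both methods rescale the sums, and the part of this scaling was not tested. *Itga4* made up 71.0% ± 4.14% of integrin α UMIs in B-cell-like and 13.9% ± 1.70% in neutrophil-like cells (mean ± SD, n = 3). *Itgb7* made up 44.5% ± 2.15% and 7.85% ± 0.342% of integrin β UMIs. Without clusters of a far depth, the log2 fold was -0.15 ± 0.23 (SE) for *Itga4* and -0.13 ± 0.32 (SE) for *Itgb7*. *Itgam* was at 561, 534, and 521 CPM in neutrophil-like and 2.21, 4.25, and 6.93 CPM in B-cell-like cells (log2 fold 7.43 ± 0.29 (SE), adjusted p = 1.81e-27). *Itgb2* was at 476, 484, and 476 CPM and 40.9, 49.1, and 44.8 CPM (log2 fold 3.97 ± 0.19 (SE), adjusted p = 1.51e-24), and *Itgal* at 489, 526, and 605 CPM and 80.2, 79.7, and 63.7 CPM (log2 fold 3.42 ± 0.18 (SE), adjusted p = 8.36e-24). *Itgax* was at 72.7, 80.9, and 59.1 CPM and 1.66, 1.06, and 0.923 CPM (log2 fold 6.37 ± 0.53 (SE), adjusted p = 1.05e-14). *Itgb2l*, at 52.5, 78.9, and 81.6 CPM in neutrophil-like cells and at 0 in 1784 B-cell-like cells, was at least 190.5-fold higher, and the second *Itgam* identifier, at 129, 99.1, and 76.0 CPM against 0, was at least 254-fold higher. Mice did not overlap for any of these 6 features. *Itga5* followed at 8.08, 12.1, and 14.1 CPM and 2.76, 2.12, and 1.39 CPM (log2 fold 3.02).

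The other 6 calls, *Lama2*, *Lama4*, *Lama5*, *Itga1*, *Itga2b*, and *Itgb5*, rested on 4 to 8 UMIs each in 464 neutrophil-like cells, and only 7 members were called without mouse 4. Without these 6 calls the share of members is not above the 20.6% of all genes, from which such calls were not removed. The calls that remain include both *Itgam* identifiers, which overlap. The TMM factors were 0.615 to 0.657 in neutrophil-like and 0.928 to 0.973 in B-cell-like sums, so that the fit sets neutrophil-like levels higher than CPM does. The 7 stromal markers summed to 87.0 to 290 CPM in neutrophil-like and 53.6 to 58.2 CPM in B-cell-like cells, and their part in the 6 calls was not tested.

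The 2 macrophage types differed in *Itgax* and in the homing chains. In all, 1 member was higher in alveolar (2.70%, against 6.21% of all genes) and 7 in interstitial macrophage-like cells (18.9% against 6.54%). *Itgax* was at 769, 379, and 333 CPM in alveolar and 49.3, 85.3, and 58.6 CPM in interstitial macrophage-like cells (log2 fold 3.17 ± 0.40 (SE), adjusted p = 4.06e-08). *Itga4* was at 15.7, 25.6, and 19.6 CPM and 641, 571, and 605 CPM (log2 fold -4.56 ± 0.49 (SE), adjusted p = 1.95e-10). *Itgb7*, a partner of *Itga4*, had no UMI in 71 alveolar macrophage-like cells and was at 177, 68.2, and 130.2 CPM in the interstitial ones, at least 19.6-fold higher. Both chains of the α4β7 dimer were thus low in the alveolar cells. *Itgal* was at 165, 164, and 137 CPM and 838, 913, and 683 CPM (log2 fold -2.09 ± 0.25 (SE), adjusted p = 5.13e-09), and *Itgam* at 102, 61.4, and 19.6 CPM and 345, 316, and 299 CPM (log2 fold -2.15 ± 0.41 (SE), adjusted p = 9.49e-05). *Itgav* was at 23.5, 35.8, and 19.6 CPM and 197, 154, and 111 CPM, and *Itga6* at 15.7, 20.5, and 6.53 CPM and 78.9, 119, and 104 CPM (log2 folds -2.16 and -2.51). The mice did not overlap for any of them, although *Itga6* was lost with the mouse as a block and without mouse 3 or mouse 4. *Itga9*, with 1 and 19 UMIs, was higher in interstitial cells by a ratio of 24.3-fold (95% counting interval, 3.86 to 1009), and it was lost without mouse 4. *Itgb2*, the common β chain, was at 604, 517, and 483 CPM and 424, 486, and 488 CPM and was not called.

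NK-like and T-cell-like cells were told apart by 11 members, 6 higher in NK-like (16.2%, against 2.23% of all genes) and 5 in T-cell-like cells (13.5% against 2.11%). *Itgax* was at 119.7, 196, and 236 CPM in NK-like cells and had no UMI in 140 T-cell-like cells, at least 50.2-fold higher. *Itga2*, known as the NK marker DX5, was at 34.6, 54.8, and 51.1 CPM and 12.6, 2.64, and 3.53 CPM (log2 fold 3.31 ± 0.61 (SE), adjusted p = 0.000169), and *Itgam* at 47.2, 100.1, and 51.1 CPM and 31.6, 5.27, and 21.2 CPM (log2 fold 2.22 ± 0.53 (SE), adjusted p = 0.00534). *Itgb2* was at 299, 391, and 310.3 CPM and 158, 171, and 162 CPM (log2 fold 1.10 ± 0.22 (SE), adjusted p = 0.000651). NK-like cells were above T-cell-like cells in every mouse for these 4 genes. *Itgal* was at 368, 601, and 444 CPM and 278, 285, and 299.7 CPM, and *Itga4* at 554, 659, and 644 CPM and 285, 379.7, and 416 CPM (log2 folds 0.79 and 0.82).

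In T-cell-like cells, *Itgb7* was at 462, 429.8, and 487 CPM against 249, 255, and 212 CPM (log2 fold -0.86 ± 0.23 (SE), adjusted p = 0.0161) and *Itgb3* at 56.9, 87.0, and 74.0 CPM against 3.15, 20.8, and 3.93 CPM (log2 fold -2.63 ± 0.48 (SE), adjusted p = 0.000112). *Itga6* was at 171, 222, and 162 CPM against 63.0, 45.3, and 51.1 CPM, and *Itgav* at 56.9, 60.7, and 49.4 CPM against 12.6, 28.3, and 19.6 CPM (log2 folds -1.78 and -1.30). These also did not overlap. *Lamc1*, with 35 and 3 UMIs, was higher in T-cell-like cells by a ratio of 15.7-fold (95% counting interval, 4.93 to 79.5). The number of calls fell to 5 without mouse 3 and to 6 without mouse 4, when *Itga4*, *Itga6*, *Itgal*, and *Itgav* were lost in both cases, *Itga2* and *Itgam* without mouse 3, and *Itgb7* without mouse 4. *Itga4* and *Itgav* were also lost without mouse 2. *Itgae* had its highest level in dendritic-like cells, at 151, 101, and 170.3 CPM.

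**Figure D5:**
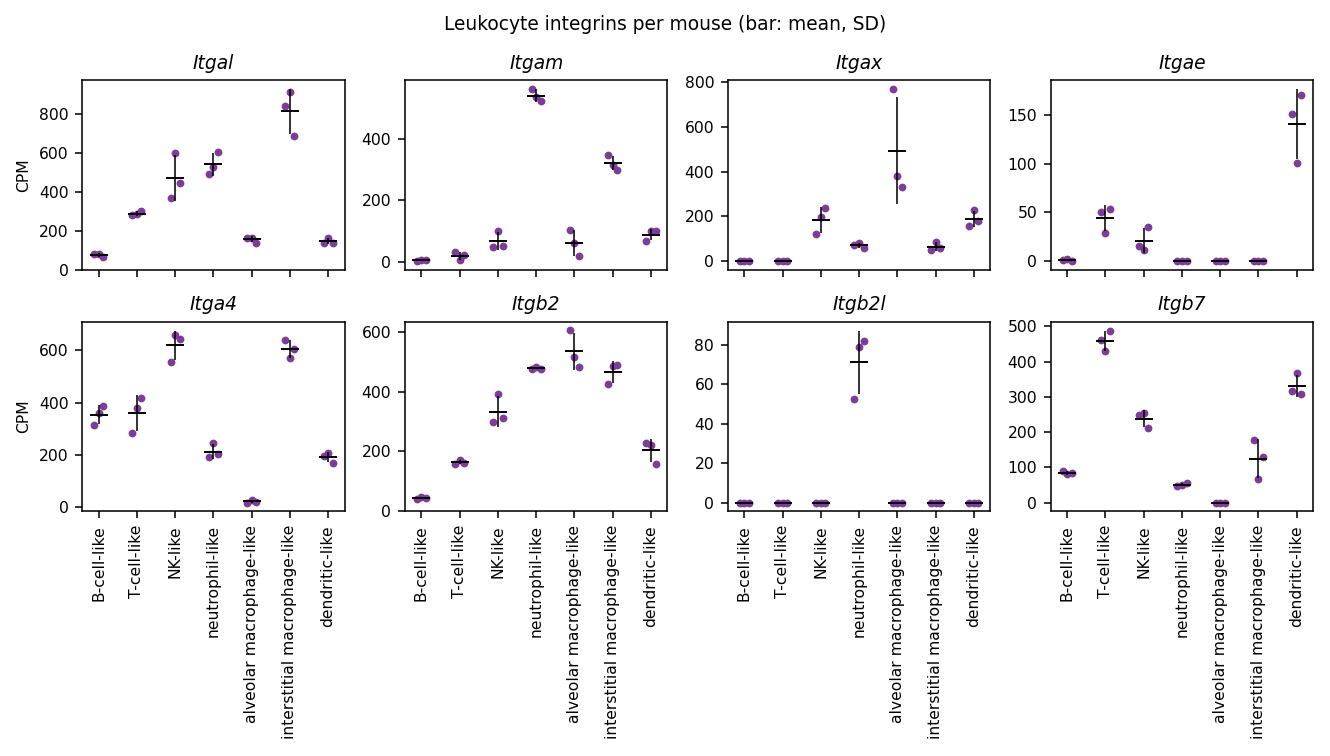
Level (CPM) of 8 leukocyte integrin genes in 7 immune cell types, with 1 point per mouse and bars for the mean and SD (n = 3). *Itgb2l* is seen in neutrophil-like cells, *Itgae* mainly in dendritic-like cells, *Itgax* is highest in alveolar macrophage-like cells (333 to 769 CPM), and *Itga4* and *Itgb7* are low in these cells.

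Genes that work with integrins and laminins were taken from 5 lists, 43 genes in all. Of these, 40 were tested and 33 were higher in 1 class than in each other class. By class, 16 were higher in stromal cells, 9 in ECs, 5 in epithelial cells, and 3 in immune cells. Of all genes, 15.2%, 10.7%, 16.9%, and 23% were called in these classes, respectively, so most genes tested were called in some class. Of 13 partners in the basement membrane, 6 were higher in stromal cells (15.2% of all genes were), 2 in ECs (10.7% of all genes), and 2 in epithelial cells (16.9% of all genes), so that the last 2 counts were near the share of all genes. *Col4a1* and *Col4a2*, the common type IV collagen chains, were at 2790.4 and 1279 CPM in ECs and 1265 and 588 CPM in stromal cells (log2 folds 1.03 and 1.01). *Col4a4*, a chain of the alveolar and glomerular network, was at 336 CPM in epithelial cells and 8.79 CPM in stromal cells (log2 fold 5.64), and *Hspg2*, perlecan, was at 359 CPM in stromal cells and 174 CPM in ECs (log2 fold 1.16). Of the 6 type IV collagen chains, *Col4a3* was also called in epithelial cells, *Col4a6* in stromal cells, and *Col4a5* in no class. Both non-integrin laminin receptors on the list were higher in epithelial cells (16.9% of all genes were). *Dag1* (dystroglycan) was at 407 CPM and *Bcam* at 387 CPM, with log2 folds of 1.54 and 1.26 over the next class.

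Of 10 other integrin ligands, 4 were higher in stromal cells and 1 each in ECs, epithelial cells, and immune cells, where 15.2%, 10.7%, 16.9%, and 23% of all genes were called, respectively. *Fn1*, fibronectin, was at 1211 CPM in stromal cells and 162 CPM in ECs (log2 fold 3.02), and *Npnt*, nephronectin, at 869.7 CPM in stromal cells and 333 CPM in epithelial cells (log2 fold 1.01). *Tnc*, tenascin C, was at 680.3 CPM in stromal cells and 13.8 CPM in ECs (log2 fold 5.72), and *Icam2*, a ligand of LFA-1, was at 599 CPM in ECs and 66.6 CPM in immune cells (log2 fold 2.91). Ligands and receptors of known pairs were thus seen both in 1 class (*Npnt* and *Itga8*) and in different classes (*Icam2* and *Itgal*). Of 14 cytoplasmic adhesion genes, 6 were higher in stromal cells (15.2% of all genes were), 4 in ECs (10.7%), and 2 in immune cells (23%). The 2 immune calls are too few to be read against that share. *Tln1* (talin) was at 336 CPM and *Fermt2* (kindlin-2) at 343 CPM in stromal cells, with log2 folds of 0.39 and 0.26 over the next class. *Vcl* (vinculin) and *Lims1* (PINCH-1) were at 282 and 265 CPM there, with log2 folds of 0.63 and 0.29. Some genes of this list at lower CPM had larger folds. The largest were those of *Parvb* in ECs (log2 fold 4.91) and of *Parvg* and *Fermt3* in immune cells (5.15 and 3.89). Of 4 hemidesmosome partners, *Plec* and *Cd151* were higher in ECs (10.7% of all genes were), with 363 and 237 CPM and log2 folds of 1.60 and 0.77.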

How the data were processed

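Single-cell RNA-Seq libraries (10x 3' v3, 16000 cells loaded per the labels) from the whole lungs of 3 wild-type mice, 1 per library, were analyzed. The values deposited by the authors are UMI counts (not normalized) of each gene in droplets that Cell Ranger kept as cells; the submitters' processing notes name Cell Ranger 3.0.2 and mm10. Positions are from GENCODE M21 on GRCm38.

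A cell was kept with 200 or more detected genes and a mitochondrial share of its UMIs no higher than 20% (2386, 2601, and 2655 cells). They were normalized with SCTransform and clustered (30 principal components, resolution 0.8, Seurat 5.3.0, sctransform 0.4.2, R 4.3.3), and ECs were clustered again on 20. Integrins and laminins were left out of the 3000 variable genes. Clusters were named from marker lists. Doublets were scored (scanpy 1.11.5) and 156 marked cells were kept, and their removal was an alternative. Libraries shared 12 barcodes.

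Counts were summed per mouse and class or type (at least 10 cells) and tested with edgeR 4.0.16 (quasi-likelihood, TMM, filterByExpr, Benjamini-Hochberg over all genes, adjusted p under 0.05). A class call needed this against each of the 3 other classes. A fold against a group without UMIs is a bound from 3 counts over the group, and one against 1 to 3 UMIs has a 95% counting interval. Fitted folds of genes with few UMIs depend on the prior count. DESeq2 1.42.0 was an alternative. Single values were compared with exact permutation tests (scipy 1.17.1). Each mouse gave all of its sums, and deviations of sums of 1 mouse correlated (r = 0.119 to 0.483, median 0.264, 18 pairs, 3837 genes; median -0.15 between mice), so the mouse was also fitted as a block. The tests were tested on simulated data.

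The genes, lists, and tests were chosen with earlier results of these data known. Every gene that the symbol rule found is in the counts, and the values of 1 of them are not reported here. Values per mouse are given for members called in a class or in a pair of types, apart from those with few UMIs. Of the other pathway genes, those called with the highest CPM were named with their levels, at most 4 per list.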

Additional observations from a re-analysis of the deposited data

How the results depend on the processing

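Of the 33 members called in a class, 33 kept the call with the mouse as a block, with DESeq2, with RLE factors, and with the stricter filter on cells (a minimum of 500 detected genes, mitochondrial share no higher than 10%). Without mouse 2, 3, or 4, 30, 31, and 31 did. Of 96 calls between types, 94 remained with the block, 90 with DESeq2, 96 with RLE, 84 with doublets removed, 73 with the stricter filter (where 14 were lost, 1 reversed, and the others had no value), and 80, 81, and 73 without mouse 2, 3, or 4, where a lone sum is assumed to vary like the other groups. With the block, the calls of *Itga6* between macrophages and of *Lama5* between neutrophil-like and B-cell-like cells (12 calls in place of 13) were lost and no other. RLE moved the median of all genes by -0.18 for alveolar against interstitial macrophage-like cells and by 0.17 for pericyte-like against smooth-muscle-like cells.

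Members called between *Car4*-type and *Aplnr*-type cells numbered 6 with the stricter filter, in place of 10. For arterial-like against venous-like cells the number was 8 with DESeq2, 3 with the stricter filter, and 1 to 5 with a mouse left out, in place of 5. For neutrophil-like against B-cell-like cells it was 8 with doublets removed and 7 to 14 with a mouse left out, in place of 13, and for NK-like against T-cell-like cells 5 to 9, in place of 11. The *Lama4* share of *Car4*-type minus *Aplnr*-type cells ranged from 4.79 to 13.8 percentage points with a mouse left out and was -21.7 with doublets removed, -12.6 with the stricter filter, and -15.8 without clusters of a far depth. Folds reversed for *Itga8* (-1.34 with doublets removed, -0.058 without clusters of a far depth), *Lama2* (-0.33 without those clusters), *Itga9* (-0.082 with the stricter filter, -0.16 without those clusters), and *Lamb1* (-1.44 and -1.43) between capillary types, for *Lama4* between neutrophil-like and B-cell-like cells (-1.02 with doublets removed), and for *Itgb7* between macrophages (1.48 with doublets removed, where that clustering put 245 cells under the alveolar name). The cause was not tested. Alveolar macrophage-like cells were not named with the stricter filter or at a resolution of 0.4, and NK-like and T-cell-like cells were not both named at 0.4 or with the members among the variable genes, so these pairs have no value there.

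Levels rest on 3 animals, so the lowest exact permutation p of a pair of types is 0.1. Intervals cover counting error only. Clusters of a far depth were left out after seeing the data.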

Other observations

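Small types had too few cells in some mice for a comparison and are given as values. The 31 platelet- or megakaryocyte-like cells had a median of 711 UMIs. Their sums in mice 2 and 3 held 10 and 12 cells, with 63396 and 10481 UMIs in all and medians of 694.5 and 776 per cell. Few cells can thus weigh heavily in the sum of mouse 2. In these sums *Itga2b*, the platelet α chain, was at 4764 and 6774 CPM and *Itgb3*, its β partner, at 2555 and 4484 CPM. *Itga6* was at 7335 and 1813 CPM in the same sums. In the 1 sum of Schwann-like cells, *Itga6* was at 657 CPM, *Itgb4* at 263 CPM, *Itgb8* at 298 CPM, *Lamb1* at 719 CPM, and *Lama4* at 587 CPM. UMIs of *Itga6* and *Itgb4* were found together in 24 of 27 Schwann-like cells (88.9%; exact 95% binomial interval, 70.8% to 97.6%). In the 1 sum of lymphatic-like ECs, 11 cells of mouse 2, *Lama4* held 85.6% of 104 laminin α UMIs. Of the 23 lymphatic-like cells, 8 were marked as doublets, and the 7 stromal markers summed to 2217 CPM in that sum. The part of stromal RNA in this share was not tested. In basophil- or mast-like cells, *Itga2b* was at 361 and 380.3 CPM and *Itgb7* at 601 and 711 CPM in 2 mice.

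*Itgb4* was also found in club-like cells, at 63.8, 83.6, and 48.1 CPM, beside *Itga6* at 38.5, 59.5, and 32.0 CPM. These 96 cells had a median of 788 UMIs but differed in depth between mice. The medians were 51167 UMIs in 15 cells of mouse 2, 33286.5 in 14 of mouse 3, and 595 in 67 of mouse 4. Within myofibroblast-like cells, *Itga9* was at 368, 442, and 416 CPM in the larger cluster and 428, 485, and 413 CPM in the smaller one, whereas *Itga8* was at 32.9, 21.8, and 24.6 CPM and 4.01, 1.66, and 8.38 CPM, respectively. By means, *Lamb1* was at 203 and 387 CPM, *Lama5* at 38.7 and 90.5 CPM, and *Itgav* at 109 and 189 CPM. *Lamb2* was at 378 and 236 CPM, and *Lama4* was closer, at 474 and 525 CPM. The folds against *Col13a1*-type fibroblasts pool both clusters, which were not tested against each other. The leading genes of the larger cluster (452 cells) held *Aspn*, *Hhip*, and *Wnt5a*. Those of the smaller cluster (352 cells) held *Pdgfra*, *Agt*, and *Stc1*, and *Tgfbi* was among both. The mean log2 fold of the myofibroblast markers was 3.705 in the larger and 1.96 in the smaller cluster.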
